A study of Mus musculus with 28 samples.

Results

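The 42 genes followed here are 20 genes of DNA replication and 22 genes of mitosis, taken by name from a table of read counts for 37620 mouse genes. All 42 were found, all 42 were among the 16932 genes that passed the filter on low counts, and their lowest count in any library was 169. Poly(A)-selected RNA was sequenced from mouse embryonic fibroblasts (MEFs) and from the cells they became during reprogramming to induced pluripotent stem cells (iPSCs), in cells labelled WT or K36M. K36M names a histone H3 whose lysine 36 is replaced by methionine, known to block the enzymes that methylate this lysine. Library names carry H3_3 for WT cells. The 14 groups were both genotypes at 7 stages: MEFs at d0 (DMEM with serum), intermediates at d2, d4, d6 and d8 (AGi medium), passaged iPSCs (S/L medium), and MEFs without OKSM, written noOKSM. OKSM stands for Oct4, Klf4, Sox2 and c-Myc, the transcription factors that reprogram fibroblasts. The sources used here do not give the delivery of K36M or OKSM, the strain or age of the animals, or a separate medium for noOKSM MEFs. Each group held 2 libraries, 28 in all, with 17507521 to 35622279 counts per library. No label says that replicates were separate cultures, and p-values then cover spread between libraries only, which may be technical.

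Replication begins when the origin recognition complex, Cdc6 and Cdt1 load rings of Mcm proteins onto DNA, and cyclin E kinase, Cdc45 and the GINS complex then turn each ring into a moving helicase. Mitosis genes are switched on later in the cycle and code for the cyclins, kinases, spindle motors, kinetochore proteins and checkpoint proteins that separate the chromosomes. E2F factors are known to drive many genes of replication, and the MuvB complex with B-Myb (Mybl2) and Foxm1 is known to drive mitosis genes through CHR and CCAAT elements near their start. Fibroblasts are known to divide faster early in reprogramming, and pluripotent stem cells are known to spend much of their cycle in S phase. In bulk RNA, more cycling cells and more RNA of these genes per cycling cell cannot be told apart.

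Motif matches at the gene starts differed in share between replication and mitosis genes, and 6 starts are shown because their genes recur in the results. Starts were read from RefSeq on GRCm38.p6 (250 bases before to 50 after each start), which held 16 of the 20 replication genes and 18 of the 22 mitosis genes. No window was at hand for Mcm4, Gins1, Gins2, Ccne2, Foxm1, Ccna2, Aurkb and Kif20a. On both strands, the CHR (TTTGAA) lay in 14 of 18 mitosis genes (77.8%), 2 of 16 replication genes (12.5%) and 20.2% of 27025 genes with a window. A CCAAT box (CCAAT) lay in 16 of 18 mitosis genes (88.9%), 10 of 16 replication genes (62.5%) and 41.1% of all. An E2F form (the letters TTTGGCG, or else the letters TTTCCCG, or else the letters TTTCGCG) lay in 1 of 18 mitosis genes (5.56%), 7 of 16 replication genes (43.8%) and 6.38% of all. E2F forms on opposite strands can overlap each other, as they do in Mcm5 and Mcm6. A match describes letters only and does not show that a factor binds. Each stretch runs 5′ to 3′ along the gene's strand from 170 bases before the start to 30 after it, with matches on either strand in capitals. They lie on GRCm38.p6 with Mcm5 at chr8:75109339-75109538, plus strand, Mcm6 at chr1:128359676-128359875, minus strand, Orc1 at chr4:108579284-108579483, plus strand, Cdk1 at chr10:69352883-69353082, minus strand, Ccnb2 at chr9:70421525-70421724, minus strand, and Cenpa at chr5:30666716-30666915, plus strand.
Mcm5: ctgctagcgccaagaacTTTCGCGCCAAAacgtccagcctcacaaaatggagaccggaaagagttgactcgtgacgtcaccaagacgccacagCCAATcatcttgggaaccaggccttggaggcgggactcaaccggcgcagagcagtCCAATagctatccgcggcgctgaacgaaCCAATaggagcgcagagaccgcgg
Mcm6: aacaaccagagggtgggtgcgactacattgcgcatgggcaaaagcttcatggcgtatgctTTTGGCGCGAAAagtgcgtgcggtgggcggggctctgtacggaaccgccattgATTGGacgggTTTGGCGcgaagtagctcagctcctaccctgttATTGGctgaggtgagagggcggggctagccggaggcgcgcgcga
Orc1: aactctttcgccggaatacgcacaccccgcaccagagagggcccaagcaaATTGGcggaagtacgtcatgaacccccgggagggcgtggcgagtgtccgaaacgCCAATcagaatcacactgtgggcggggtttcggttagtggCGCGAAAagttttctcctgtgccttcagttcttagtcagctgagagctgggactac
Cdk1: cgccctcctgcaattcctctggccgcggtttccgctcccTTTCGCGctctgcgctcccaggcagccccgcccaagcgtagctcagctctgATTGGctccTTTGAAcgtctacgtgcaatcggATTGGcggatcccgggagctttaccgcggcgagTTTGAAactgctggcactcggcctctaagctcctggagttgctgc
Ccnb2: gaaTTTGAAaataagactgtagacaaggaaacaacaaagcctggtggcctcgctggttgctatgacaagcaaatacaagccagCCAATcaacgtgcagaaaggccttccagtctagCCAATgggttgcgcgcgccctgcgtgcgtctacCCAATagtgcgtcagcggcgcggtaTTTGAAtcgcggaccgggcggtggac
Cenpa: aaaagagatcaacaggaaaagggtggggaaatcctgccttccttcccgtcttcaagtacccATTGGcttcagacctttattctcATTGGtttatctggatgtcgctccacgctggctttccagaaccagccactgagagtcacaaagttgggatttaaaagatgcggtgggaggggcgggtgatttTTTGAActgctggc
In capitals, the 3 replication genes show E2F forms beside CCAAT boxes and no CHR, Ccnb2 and Cenpa show CHR with CCAAT boxes and no E2F form, and Cdk1, which codes for the main mitotic kinase, shows all 3 motifs. Other genes that recur below differ from these 6. The windows of Mybl2, Ccne1 and E2f1 held none of the 3 motifs, and those of Ccnb1 and Bub1 held CCAAT boxes and no CHR.

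**Figure D1:**
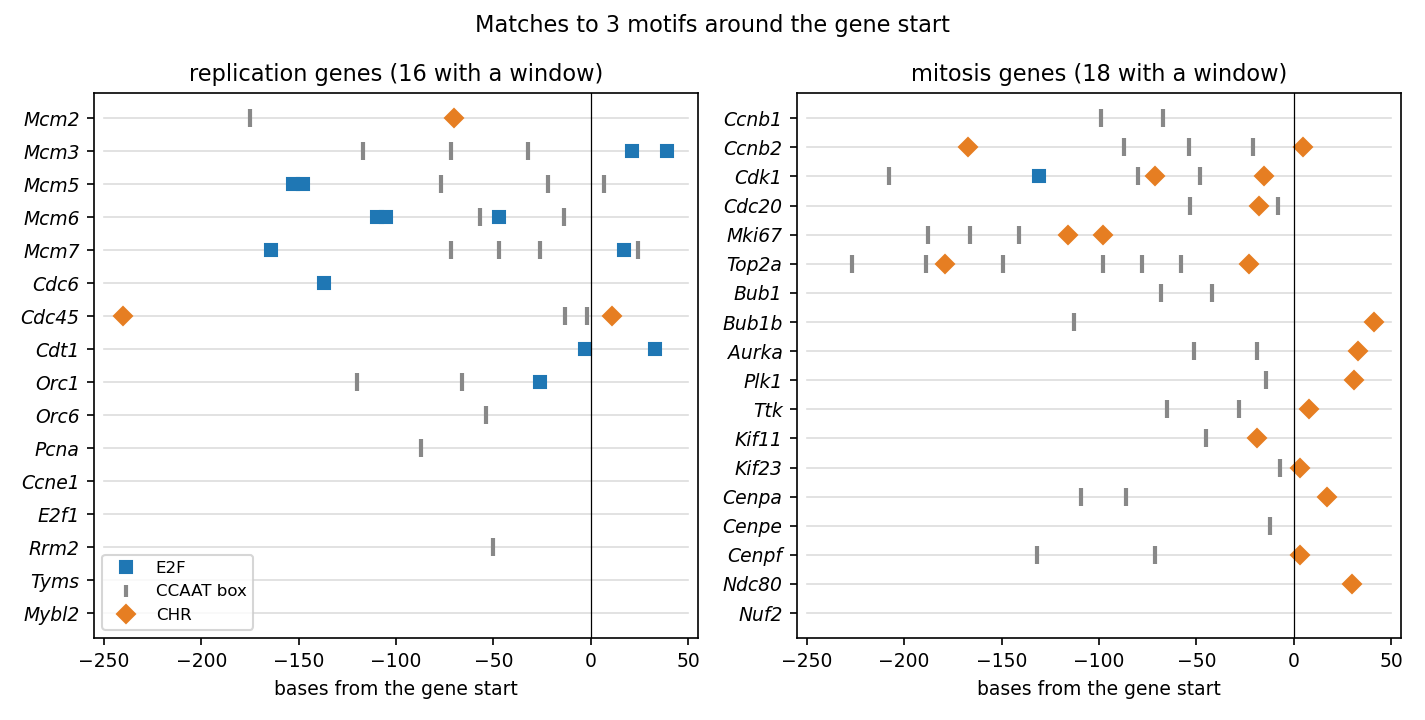
Positions of E2F (squares), CCAAT box (ticks) and CHR (diamonds) matches in bases from the RefSeq gene start, for the 16 replication genes and 18 mitosis genes with a window, with the 2 windows of Mcm7 drawn on 1 line. CHR matches sit in 14 of the 18 mitosis genes and in 2 of the 16 replication genes.

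Fibroblast markers (Col1a1, Col1a2, Col3a1, Thy1, Pdgfra and Dcn) summed to 15900 to 25900 CPM in the MEF libraries and pluripotency markers (Nanog, Zfp42, Esrrb, Dppa5a, Tdgf1 and Utf1) to 4240 to 4550 CPM in iPSC libraries, in which fibroblast markers still summed to 772 to 1270 CPM. CPM is the count scaled to the TMM-adjusted library size. Genotypes differed in these markers on the days compared: pluripotency markers summed to 150 to 160 CPM in K36M and 0.796 to 0.888 in WT at d4, where 1 to 2 of the 6 were at 0 in WT, and to 1250 to 1270 in K36M and 220 to 223 in WT at d8. Fibroblast markers summed to 96.2 to 114 CPM in K36M and 1700 to 1810 in WT at d8. The part of this difference in cell makeup in the genotype differences of the 42 genes was not tested. The K36M d6 libraries stood apart, because the SD of the log2 difference between replicates over all genes was 0.467 there and 0.128 to 0.229 in the other groups. In both of them long transcripts read lower against short ones than elsewhere, by -0.77 and -0.49 in the median log2 deviation of genes with at least 5282 exon bases minus that of genes with at most 2005. The other 26 libraries gave -0.15 to 0.24. Counts for the K36M steps into and out of d6 are also given with a length correction and without each of these libraries in turn. Counts of Mcm7, Cdc45, Gins2, Orc1, Ccne2, Ccna2, Cdc20 and Kif20a are uncertain where their exons overlap an antisense gene, because the sources used here do not give the strand setting of the counting. Foxm1 overlaps a gene on its own strand, and its counts are uncertain there too.

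In WT cells, most replication and mitosis genes rose over the first 2 days with OKSM, fell back by d4, stayed low to d6, began to rise at d8 and were far higher in iPSCs. In K36M cells both classes also rose over the first 2 days, and their medians did not fall back by d8. Together the 42 genes took 0.289% and 0.292% of all counts in the WT d0 libraries, 0.677% and 0.68% at d2, 0.418% and 0.43% at d4, 0.386% and 0.365% at d6, 0.46% and 0.503% at d8 and 1.23% and 1.24% in iPSCs. In K36M their share was 0.354% and 0.352% at d0, 0.749% and 0.755% at d2, 0.844% and 0.853% at d4, 0.801% and 0.893% at d6, 0.939% and 0.96% at d8 and 1.23% and 1.2% in iPSCs. From d0 to d8 both K36M libraries of a stage were above both WT libraries. In iPSCs they were close to them. On the scale of log2(CPM + 1) minus the WT d0 mean, the median replication gene in WT took the values 0.89 ± 0.012, 0.21 ± 0.036, 0.02 ± 0.016 and 0.40 ± 0.02 on d2, d4, d6 and d8 (mean ± SD, n = 2 libraries). In K36M these were 0.90 ± 0.036, 1.00 ± 0.025, 1.14 ± 0.19 and 1.03 ± 0.034. The median mitosis gene in the same order stood at 0.83 ± 0.001, 0.18 ± 0.038, -0.08 ± 0.0091 and 0.18 ± 0.12 in WT and at 1.00 ± 0.0098, 1.17 ± 0.0012, 1.14 ± 0.24 and 1.19 ± 0.044 in K36M. Both classes held close to their d2 level in K36M while they dropped in WT.

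**Figure D2:**
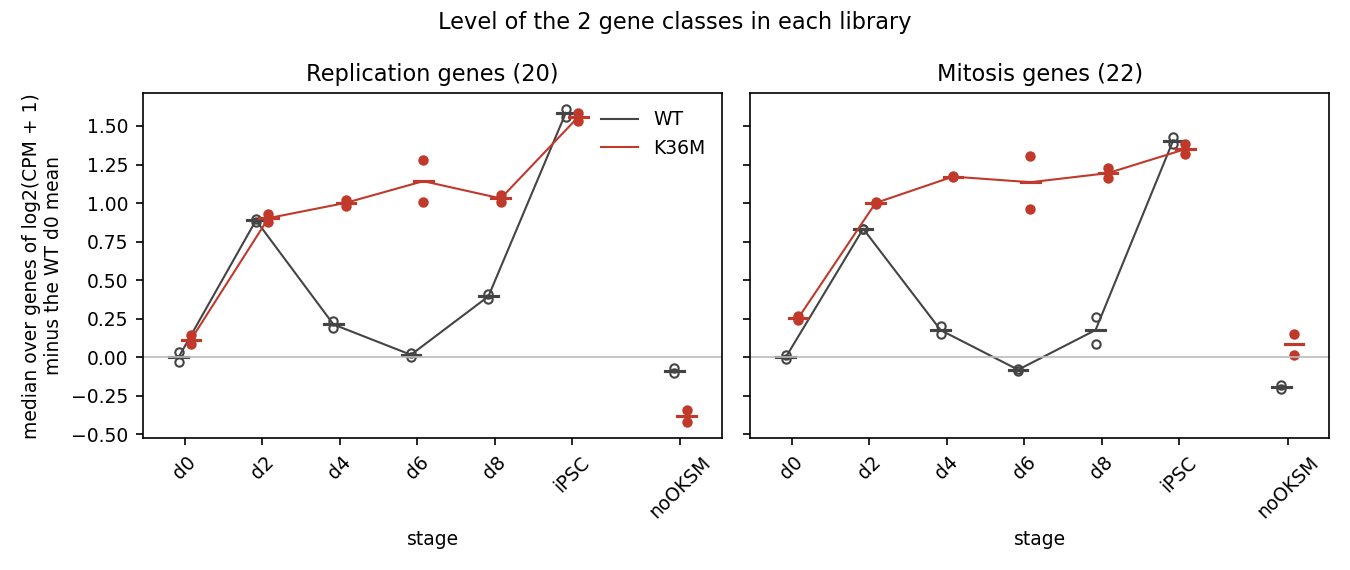
Median over the 20 replication genes (left) and 22 mitosis genes (right) of log2(CPM + 1) minus the WT d0 mean, by stage, with 1 point per library (WT open and grey, K36M filled and red), group means as bars and lines joining the means. WT drops between d2 and d6 where the K36M group means stay at or above their d2 level, and the genotypes meet in iPSCs.

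The first step, d0 to d2, raised both classes in both genotypes: 18 of 20 replication genes and all 22 mitosis genes were higher in WT at d2 than at d0, against 27.1% of all genes tested, and 19 and 20 in K36M, against 30%. Genes were called by edgeR's quasi-likelihood test with a Benjamini-Hochberg adjusted p below 0.05 over all genes. E2f1 passed in neither genotype, and neither did Gins2 in WT nor Bub1 and Ndc80 in K36M. E2f1 went down, with log2 fold changes of -0.33 in WT and -0.25 in K36M. In WT 1 replication gene was called lower with DESeq2, RLE scaling, no filter on low counts, the length correction or a fit of only the groups compared. In WT the median log2 fold change was 0.91 over replication and 0.84 over mitosis genes. In K36M it was 0.81 and 0.73, with 0.00 and 0.02 over all genes. The medium changed at this step too, so time, OKSM and medium cannot be told apart. Scaling by total counts moved the median of all genes by 0.22 in WT and 0.29 in K36M on the log2 scale. The step differed between genotypes for 3 of the 42 genes (4.16% higher and 6.42% lower over all genes): Ccne1 rose more in K36M, by 0.66 ± 0.12 (edgeR BH-adjusted p = 0.000695) on the log2 scale, where ± after a log2 fold change is its standard error (SE) throughout, and Mki67 and Foxm1 rose less. Without WT d0 replicate 1, WT d2 replicate 1, K36M d0 replicate 1 or K36M d2 replicate 1, Ccne1 alone passed, and without WT d0 replicate 2 the count was 5. Foxm1 also did not pass with RLE scaling, total count scaling or the length correction (-0.47, -0.46 and -0.39).

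The step from d2 to d4 parted the genotypes. In WT 19 of 20 replication genes and 21 of 22 mitosis genes fell, against 15.2% of all genes tested. E2f1 and Kif11 did not pass, and the medians were -0.63 and -0.67 (all genes 0.00). In K36M 7 replication genes rose and 4 fell. Of the mitosis genes 9 rose and 0 fell, against 20% of all genes higher and 17.9% lower, with medians of 0.11 and 0.23. Leaving out any 1 of the 4 K36M libraries of d2 and d4 brought the 20 K36M calls to 10 to 12. The difference between the steps passed for 15 of 20 replication genes and all 22 mitosis genes, each with the higher value in K36M, against 11.1% of all genes. Orc1 (1.29 ± 0.168, edgeR BH-adjusted p = 4.28e-06) and Bub1 (1.27 ± 0.221, edgeR BH-adjusted p = 0.000135) had the largest differences of their class on the log2 scale, and Ccne2, Pcna, E2f1, Gins2 and Tyms did not pass. That count stayed between 34 and 37 whichever of the 8 libraries was left out, and 37 genes passed with the length correction.

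From d4 to d6 WT changed little, with 3 replication and 5 mitosis genes lower and 0 higher, against 1.05% lower over all genes tested. Without WT d6 replicate 2 none of the 42 passed. Without WT d4 replicate 1, 1 passed, and 5 passed without WT d4 replicate 2 and without WT d6 replicate 1. With the length correction 13 passed. From d6 to d8 WT rose again in 12 replication and 10 mitosis genes with 0 lower, against 9.16% of all genes, led by Mybl2 (0.78 ± 0.129, edgeR BH-adjusted p = 0.000195) and Bub1b (0.65 ± 0.107, edgeR BH-adjusted p = 0.000185). Without WT d6 replicate 2 the count was 11, without WT d8 replicate 1 it was 14 and without WT d8 replicate 2 it was 13. From d4 to d6 in K36M, 9 replication genes rose and 2 fell, and 5 mitosis genes rose and 4 fell, against 28.4% higher and 26.9% lower over all genes. From d6 to d8 in K36M, 1 replication gene rose and 6 fell, and 8 mitosis genes rose and 5 fell, against 23.8% higher and 22.9% lower over all genes. Spearman's rho between exon length and log2 fold change across the 22 mitosis genes was -0.76 into K36M d6 and 0.88 out of it, as a description of steps that share libraries. With the length correction the d4 to d6 step had 6 replication genes higher and 3 lower, and 5 mitosis genes higher and 2 lower. Of these 16 calls 10 were among the 20 above. Without K36M d6 replicate 1 the mitosis genes had 8 higher and 2 lower, and without replicate 2 they had 5 higher and 11 lower, where replication genes had 8 higher and 4 lower and then 11 higher and 3 lower. With the length correction the d6 to d8 step had 0 replication genes higher and 6 lower, and 1 mitosis gene higher and 4 lower, 9 of these 11 being among the 20 above. Without K36M d6 replicate 1 it had 2 mitosis genes higher and 7 lower, and without replicate 2 it had 12 higher and 7 lower, where replication genes had 1 higher and 7 lower and then 4 higher and 8 lower. The balance of higher and lower mitosis genes around K36M d6 depended on which of its libraries was used. The step differed between genotypes for 19 of the 42 from d4 to d6 (17% higher and 21.1% lower over all genes) and for 23 from d6 to d8 (17.9% higher and 21% lower), counts that ran from 13 to 28 and from 17 to 30 when 1 library was left out.

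Passage to iPSCs raised nearly every gene in WT and most replication genes but 7 mitosis genes in K36M. In WT 19 of 20 replication genes and all 22 mitosis genes were higher in iPSCs than at d8, against 35.8% of all genes tested, with medians of 1.30 and 1.23 on the log2 scale and Ccne2 not past the threshold. In K36M 17 replication genes were higher, against 27.1%, while 7 of 22 mitosis genes were higher, near that share. Cdk1, Cenpe and Nuf2 were lower, under the share of 24.5% lower over all genes. The K36M medians were 0.62 and 0.19. The fall of Cenpe did not pass without any 1 of the 4 libraries, nor that of Nuf2 without K36M d8 replicate 2, K36M iPSC replicate 1 or replicate 2. They had log2 fold changes of -0.41 to -0.28 for Cenpe and -0.28 to -0.24 for Nuf2 in those fits. The rise was smaller in K36M than in WT for 15 replication and all 22 mitosis genes, against 25.1% of all genes, with Orc1 (-1.25 ± 0.161, edgeR BH-adjusted p = 9.92e-07) and Cenpf (-1.92 ± 0.256, edgeR BH-adjusted p = 2.32e-06) in front. Medium also changed between d8 and iPSCs, so it cannot be told apart from time.

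Set against WT on the same day, K36M cells carried more RNA of both classes at d4, d6 and d8, differed past the threshold in 5 genes at d2 and did not differ past the threshold in iPSCs. At d2 Ccne1 and Mcm5 were higher and Mcm6 lower among replication genes, and Aurka and Kif23 were higher among mitosis genes, 5 of 42 against 9.74% higher and 10.4% lower over all genes tested. Taken over both directions this count was under the share over all genes, and the higher calls alone were near it. Kif23 did not pass without WT d2 replicate 1, K36M d2 replicate 1 or K36M d2 replicate 2 (0.28 to 0.32). Without WT d2 replicate 1 or K36M d2 replicate 1 the count was 2, and without K36M d2 replicate 2 it was 3. A fit of the 4 d2 libraries alone called 25 (9 replication genes higher and 1 lower, 14 mitosis genes higher and 1 lower). At d4 16 of 20 replication genes and all 22 mitosis genes were higher, against 27.1% of all genes, at d6 19 and 22, against 37.3%, and at d8 16 and 22, against 31.6%, with 0 lower on each of these days. With no filter on low counts 1 replication gene was lower at d6 and 1 at d8. At d8 the length correction and a fit of only the groups compared also called 1 lower. Median log2 fold changes were 0.77, 1.19 and 0.61 for replication genes, 0.99, 1.37 and 1.07 for mitosis genes and 0.02, 0.08 and 0.04 for all genes, in the order of the days. All 22 mitosis genes and 15 replication genes were higher on all 3 days, and Gins2, Pcna, Ccne2, E2f1 and Tyms were not. Over d2 to d8 in 1 model, with 8 libraries per genotype and day as a covariate, 17 replication genes and all 22 mitosis genes were higher in K36M and 0 lower, against 30.2% of 15954 genes tested. The medians were 0.70 and 0.90 (all genes 0.02), and Tyms, Ccne2 and E2f1 did not pass. This model fits 1 difference to all 4 days, although the step from d2 to d4 differed between genotypes for 37 of the 42. Its values are thus averages over days with unlike differences. Without the d6 libraries 15 and 22 passed, and the length correction gave 18 and 22. In iPSCs edgeR called 0 of the 42, against 1.25% of all genes, while 3 replication genes and 1 mitosis gene had an unadjusted p below 0.05. DESeq2 also called 0, and a fit of the 4 iPSC libraries alone called 5 (1 replication and 1 mitosis gene higher, 1 and 2 lower). Log2 fold changes in iPSCs ran from -0.21 to 0.24 for replication genes and from -0.32 to 0.21 for mitosis genes.

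**Figure D3:**
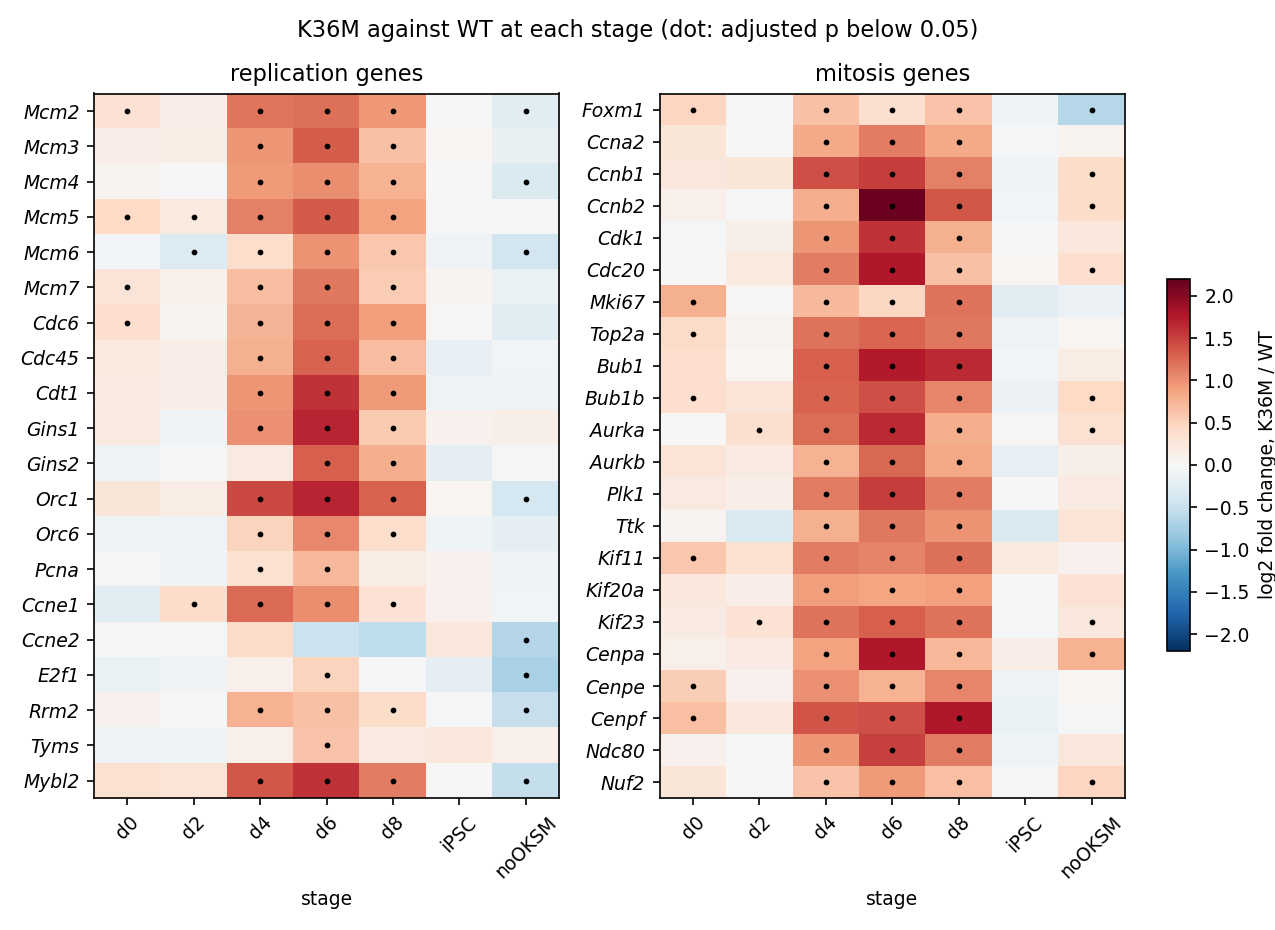
Log2 fold change of K36M against WT (colour, red for higher in K36M) for each of the 42 genes (rows) at each of the 7 stages (columns), with a dot where the edgeR adjusted p is below 0.05. At d4, d6 and d8 all 22 mitosis genes carry a dot and are red, the iPSC columns carry no dot, and in noOKSM MEFs the dotted replication genes are blue and the dotted mitosis genes red, apart from Foxm1.

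Among genes that load the helicase, Mcm5, a subunit of the ring whose start carries E2F forms, followed the class closely. Mcm5 in WT read 85.1 and 83.6 CPM at d0, 244 and 255 at d2, 149 and 145 at d4, 132 and 122 at d6, 168 and 178 at d8, 433 and 418 in iPSCs and 80.2 and 81.9 in noOKSM MEFs. In K36M, Mcm5 read 114 and 115 CPM at d0, 291 and 291 at d2, 319 and 312 at d4, 322 and 329 at d6, 308 and 328 at d8, 437 and 401 in iPSCs and 77.1 and 84.8 in noOKSM MEFs. K36M libraries were above WT libraries from d0 to d8 and overlapped with them in iPSCs and noOKSM MEFs. With 2 libraries a group, 60.1%, 67%, 77%, 78.5% and 83.9% of all genes did not overlap between genotypes at d0, d2, d4, d6 and d8, so the lack of overlap given for single genes is the usual case. In iPSCs that share was 50.3%. At d4 the log2 fold change of Mcm5 was 1.10 ± 0.0775 (± SE, edgeR BH-adjusted p = 3.94e-11). The 5 other Mcm subunits, Mcm2, Mcm3, Mcm4, Mcm6 and Mcm7, were higher in K36M at d4, d6 and d8 as well. Mcm6, at 329 and 309 CPM in WT and 257 and 259.7 CPM in K36M, was lower at d2, with -0.30 ± 0.0717 (edgeR BH-adjusted p = 0.00345). Without WT d2 replicate 1 the Mcm6 difference was -0.26 and did not pass. The Mcm5 difference at d2, 0.22, did not pass without any 1 of the 4 d2 libraries (0.19 to 0.25) or with the length correction (0.19). Cdc6, which helps load the ring, in WT read 23.3 and 20.1 CPM at d0, 45.4 and 45.7 at d2, 24.5 and 25.3 at d4, 22.7 and 18.6 at d6, 27.9 and 27.3 at d8, 69.3 and 67.4 in iPSCs and 18.4 and 19.5 in noOKSM MEFs. In K36M, Cdc6 read 28.3 and 27.7 CPM at d0, 48.8 and 46.2 at d2, 42.7 and 41.1 at d4, 44 and 52.5 at d6, 50.0 and 54.3 at d8, 71.7 and 68.2 in iPSCs and 16 and 16.1 in noOKSM MEFs. The groups did not overlap from d0 to d8, and the d4 log2 fold change was 0.75 ± 0.1 (edgeR BH-adjusted p = 1.18e-06).

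Orc1, a subunit of the origin recognition complex that binds and hydrolyses ATP, had the largest log2 fold change between genotypes of the 20 replication genes at d4 and at d8. Orc1 in WT read 14.6 and 12.9 CPM at d0, 24.7 and 24.8 at d2, 16.3 and 15.5 at d4, 16.2 and 14.9 at d6, 22 and 25 at d8, 67.7 and 64.3 in iPSCs and 13.6 and 14 in noOKSM MEFs. In K36M, Orc1 read 17.2 and 15.8 CPM at d0, 27.5 and 27.9 at d2, 42.2 and 44.7 at d4, 41.4 and 58.4 at d6, 56.4 and 59 at d8, 70.6 and 65 in iPSCs and 10.6 and 10.5 in noOKSM MEFs. All K36M libraries of d4 to d8 were above all WT libraries of the same days, by 2.73-fold at d4 and 2.45-fold at d8 (edgeR BH-adjusted p = 6.69e-10 and 1.85e-09), while in noOKSM MEFs K36M libraries were below WT. That difference, -0.39 on the log2 scale, did not pass without any 1 of the 4 libraries (-0.41 to -0.37) or with total count scaling (-0.23). Orc6, a small subunit of the same complex, differed less, with a log2 fold change of 0.49 ± 0.104 (edgeR BH-adjusted p = 0.000363) at d4. Cdt1, the partner of Cdc6 in loading, in WT read 23.3 and 22.9 CPM at d0, 55.5 and 48.8 at d2, 38.2 and 37.1 at d4, 36.3 and 29.5 at d6, 42.4 and 44.5 at d8, 177 and 160.01 in iPSCs and 17.9 and 17.9 in noOKSM MEFs. In K36M, Cdt1 read 25.8 and 26.7 CPM at d0, 54.6 and 61 at d2, 79 and 68.7 at d4, 119.7 and 79.5 at d6, 82.7 and 82.9 at d8, 165 and 147 in iPSCs and 16.7 and 17 in noOKSM MEFs. Its K36M d6 libraries differed widely, yet both lay above WT, and the d8 log2 fold change was 0.93 ± 0.135 (edgeR BH-adjusted p = 2.91e-06).

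Cdc45 and the GINS subunits, which join the ring to make the active helicase, differed among themselves. Cdc45 was at 28.8 and 28.5 CPM in WT and 47.5 and 50.5 CPM in K36M at d4, a log2 fold change of 0.78 ± 0.0858 (edgeR BH-adjusted p = 6.91e-08). Gins1 was at 10.7 and 10.8 CPM in WT and 36.3 and 32.4 CPM in K36M at d6, with 1.68 ± 0.146 (edgeR BH-adjusted p = 7.57e-10), and its K36M level had come down to 24.9 and 25.3 CPM at d8. Gins2 in WT read 40.7 and 38.9 CPM at d0, 44.6 and 44.9 at d2, 32.2 and 29.4 at d4, 22.8 and 23.3 at d6, 21.9 and 22.9 at d8, 53.5 and 51.5 in iPSCs and 38.4 and 41.7 in noOKSM MEFs. In K36M, Gins2 read 36.7 and 36.8 CPM at d0, 44.1 and 46.1 at d2, 33.3 and 36.9 at d4, 57.5 and 57.3 at d6, 36.7 and 41 at d8, 46.7 and 44.5 in iPSCs and 35.5 and 43.3 in noOKSM MEFs. Gins2 read lower on each successive day from d2 to d8 in WT and peaked at d6 in K36M, and its d4 to d6 step differed between genotypes by 1.12 ± 0.134 (edgeR BH-adjusted p = 2.06e-06) on the log2 scale. At d4 the Gins2 log2 fold change of 0.19 did not pass (edgeR BH-adjusted p = 0.094).

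Genes that supply the fork did not respond alike. Pcna, the sliding clamp of the polymerases, in WT read 139 and 115 CPM at d0, 231 and 252 at d2, 197 and 167 at d4, 167 and 172 at d6, 185 and 193 at d8, 293 and 266 in iPSCs and 106 and 119 in noOKSM MEFs. In K36M, Pcna read 123 and 127 CPM at d0, 233 and 227 at d2, 225 and 236 at d4, 230.1 and 324 at d6, 206 and 218 at d8, 309.6 and 289 in iPSCs and 93.3 and 114 in noOKSM MEFs. The groups did not overlap at d4, d6 and d8 and overlapped at the other stages. Pcna was higher in K36M at d4 (0.34 ± 0.128, edgeR BH-adjusted p = 0.0293) and d6. At d4 it did not pass without WT d4 replicate 2 (0.23), K36M d4 replicate 1 (0.37) or replicate 2 (0.31). The length correction gave 0.26, also not past it. At d8 its log2 fold change of 0.17 did not pass (edgeR BH-adjusted p = 0.264). Rrm2, the inducible subunit of ribonucleotide reductase, in WT read 206 and 194 CPM at d0, 543 and 548 at d2, 242 and 224 at d4, 193 and 179 at d6, 189 and 204 at d8, 453 and 461 in iPSCs and 187 and 193 in noOKSM MEFs. In K36M, Rrm2 read 206 and 219.9 CPM at d0, 546 and 558 at d2, 407 and 379.8 at d4, 290.4 and 288 at d6, 266 and 254 at d8, 451 and 440.03 in iPSCs and 128 and 139 in noOKSM MEFs. K36M libraries lay above WT at d4, d6 and d8 and below WT in noOKSM MEFs and in iPSCs, where the difference did not pass. Rrm2 peaked at d2 in both genotypes and fell by d4 in both, less in K36M, so that the step differed by 0.74 ± 0.112 (edgeR BH-adjusted p = 2.79e-05) on the log2 scale. Tyms, which makes thymidylate, was higher in K36M at d6 (0.63 ± 0.105, edgeR BH-adjusted p = 1.43e-05), at 73.6 and 58.7 CPM against 43.3 and 42.1 CPM in WT. Its log2 fold changes at d4 and d8, 0.11 and 0.19, did not pass (edgeR BH-adjusted p = 0.411 and 0.132).

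The regulators of entry into S phase did not all follow one course. Ccne1, which codes for cyclin E1, in WT read 75.9 and 65.7 CPM at d0, 98.1 and 99.2 at d2, 66.7 and 64.6 at d4, 70.5 and 66.5 at d6, 79.9 and 81.5 at d8, 176 and 181 in iPSCs and 68.6 and 71.3 in noOKSM MEFs. In K36M, Ccne1 read 59.3 and 60.1 CPM at d0, 133 and 129 at d2, 154 and 156 at d4, 144 and 133 at d6, 98 and 104 at d8, 202 and 178 in iPSCs and 64.4 and 69.1 in noOKSM MEFs. Ccne1 was lower in K36M libraries at d0 and higher from d2 to d8, with log2 fold changes of 0.41 ± 0.084 (edgeR BH-adjusted p = 0.000909) at d2 and 1.24 ± 0.0853 (edgeR BH-adjusted p = 2.75e-11) at d4. The d0 difference of -0.25 did not pass (edgeR BH-adjusted p = 0.0538). Ccne2, which codes for cyclin E2, in WT read 31.5 and 30.3 CPM at d0, 56.4 and 53.5 at d2, 24.9 and 21.7 at d4, 17.6 and 20.8 at d6, 17.2 and 17 at d8, 13.2 and 11.4 in iPSCs and 33.7 and 32 in noOKSM MEFs. In K36M, Ccne2 read 31.2 and 31.5 CPM at d0, 52.3 and 54.3 at d2, 30.8 and 31.3 at d4, 7.51 and 20.1 at d6, 12.2 and 11.1 at d8, 13.5 and 15.3 in iPSCs and 20.4 and 21.8 in noOKSM MEFs. Ccne2 was highest at d2 and lower at d4 in both genotypes, with its lowest levels of the course from d6 to iPSCs. The median of its Pearson correlations with the other replication genes across the 28 libraries was -0.31. Those medians for the Mcm genes ran from 0.91 to 0.96. These correlations describe libraries that share groups and depth scaling. E2f1, the E2F factor itself, in WT read 49.1 and 49.2 CPM at d0, 39 and 39.5 at d2, 32.2 and 32.7 at d4, 31.7 and 26.7 at d6, 39.6 and 33.9 at d8, 92.5 and 101 in iPSCs and 54.7 and 60.5 in noOKSM MEFs. In K36M, E2f1 read 44.6 and 44.3 CPM at d0, 38.3 and 36.3 at d2, 35.7 and 34.9 at d4, 51 and 31.5 at d6, 34 and 37.9 at d8, 83.9 and 83.7 in iPSCs and 33.4 and 36.5 in noOKSM MEFs. E2f1 stayed between 26.7 and 51.0 CPM from d0 to d8, with 1 of the 2 K36M d6 libraries well above the other, and was highest in iPSCs. At d6 its log2 fold change of 0.49 passed (edgeR BH-adjusted p = 0.00393), but it was 0.11 without K36M d6 replicate 1 and 0.80 without replicate 2, and 0.37 and not past the threshold without WT d6 replicate 2. Its log2 fold change from d8 to iPSCs was 1.40 ± 0.14 (edgeR BH-adjusted p = 6.28e-09) in WT and 1.22 ± 0.141 (edgeR BH-adjusted p = 1.73e-07) in K36M.

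Mybl2, which codes for B-Myb, a partner of the MuvB complex, had the widest range between group means of the replication list. Mybl2 in WT read 22.8 and 24.4 CPM at d0, 102 and 98.1 at d2, 70.0 and 72.3 at d4, 69.2 and 57.1 at d6, 109 and 108 at d8, 862 and 833 in iPSCs and 20.5 and 23.4 in noOKSM MEFs. In K36M, Mybl2 read 28.7 and 31.3 CPM at d0, 125 and 122 at d2, 188 and 178 at d4, 227 and 153 at d6, 242 and 229 at d8, 870.3 and 811 in iPSCs and 16.3 and 14.3 in noOKSM MEFs. It rose 4.24-fold from d0 to d2 in WT (edgeR BH-adjusted p = 7.58e-12) and 4.11-fold in K36M (edgeR BH-adjusted p = 6.34e-12). From d8 to iPSCs it rose 7.81-fold and 3.56-fold (edgeR BH-adjusted p = 7.38e-15 and 6.01e-11). K36M was above WT from d2 to d8 without overlap, by 1.36 ± 0.129 (± SE, edgeR BH-adjusted p = 6.18e-09) on the log2 scale at d4.

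**Figure D4:**
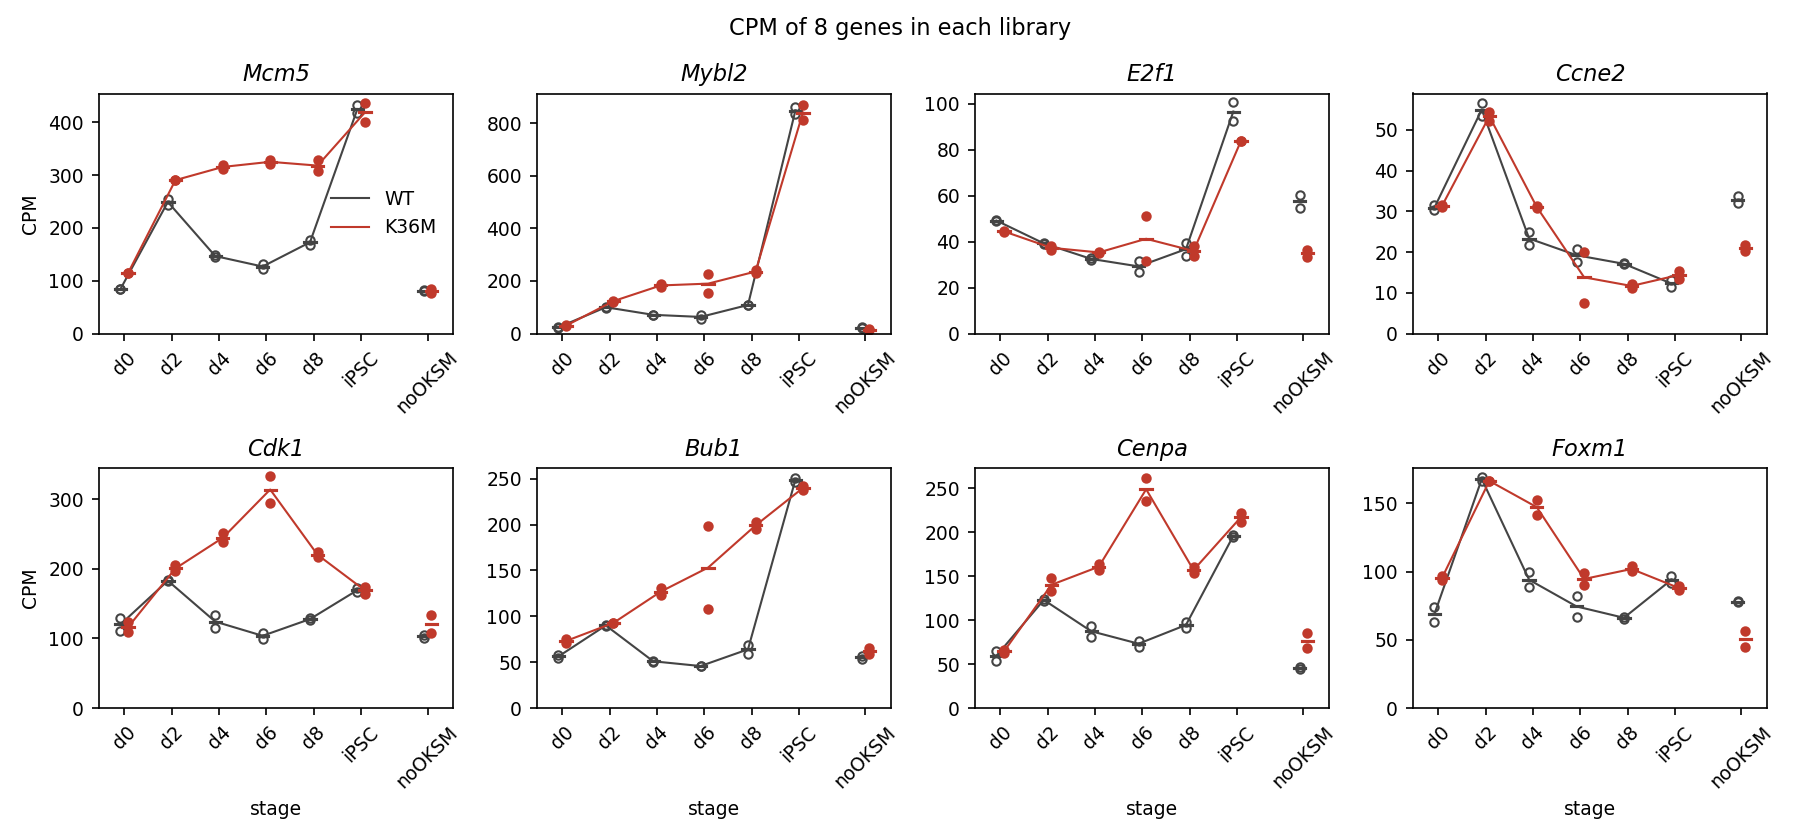
CPM of Mcm5, Mybl2, E2f1, Ccne2, Cdk1, Bub1, Cenpa and Foxm1 by stage, with 1 point per library (WT open and grey, K36M filled and red), group means as bars joined by lines, each panel with its own linear axis from 0. Mcm5, Mybl2, Cdk1, Bub1 and Cenpa are higher in K36M from d4 to d8, Ccne2 falls after d2 in both genotypes and E2f1 rises in iPSCs.

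Among the drivers of mitosis, Foxm1, the transcription factor of the late cell cycle, was the least like the others. The median of its Pearson correlations with the other mitosis genes over the 28 libraries was 0.49. Foxm1 in WT read 63.4 and 74.1 CPM at d0, 169.5 and 166 at d2, 88.6 and 99.3 at d4, 82.1 and 66.8 at d6, 65.4 and 66.8 at d8, 96.5 and 91.4 in iPSCs and 78.7 and 77.4 in noOKSM MEFs. In K36M, Foxm1 read 96.6 and 94 CPM at d0, 166 and 167 at d2, 153 and 142 at d4, 98.6 and 90.4 at d6, 100.03 and 104 at d8, 89.1 and 86.8 in iPSCs and 56.3 and 45.1 in noOKSM MEFs. It peaked at d2 in both genotypes and was not highest in iPSCs, and K36M was above WT at d0 and from d4 to d8, with 0.65 ± 0.105 (edgeR BH-adjusted p = 1.73e-05) on the log2 scale at d4. Its higher value at d0 did not pass without WT d0 replicate 1 (0.36), nor that at d6 without WT d6 replicate 2 (0.20). Ccnb1, which codes for cyclin B1, in WT read 75.1 and 73.4 CPM at d0, 135 and 136 at d2, 94.5 and 90.5 at d4, 85.2 and 84.3 at d6, 105 and 128 at d8, 310.4 and 313 in iPSCs and 59.6 and 58.7 in noOKSM MEFs. In K36M, Ccnb1 read 86.7 and 89.4 CPM at d0, 166 and 160.5 at d2, 237 and 259 at d4, 193 and 295 at d6, 239 and 265 at d8, 299 and 293 in iPSCs and 74.2 and 81.7 in noOKSM MEFs. Ccnb1 rose from d2 to d4 in K36M (0.60 ± 0.126, edgeR BH-adjusted p = 0.000474) as it fell in WT, which left K36M 2.68-fold higher at d4 (edgeR BH-adjusted p = 2.65e-09). Ccnb2, another B-type cyclin, whose start carries CHR and CCAAT boxes, in WT read 59.8 and 54 CPM at d0, 79.6 and 78.5 at d2, 62.9 and 52.7 at d4, 46.2 and 41.1 at d6, 55 and 55.3 at d8, 188 and 186 in iPSCs and 47.8 and 47.3 in noOKSM MEFs. In K36M, Ccnb2 read 59 and 63.4 CPM at d0, 76.5 and 78.9 at d2, 97.2 and 103 at d4, 196 and 192 at d6, 145 and 140.02 at d8, 184 and 176 in iPSCs and 57.2 and 69.2 in noOKSM MEFs. Its 4.44-fold difference between genotypes at d6 (edgeR BH-adjusted p = 1.62e-14) was the largest of any of the 42 genes on any day, and at d8 it was 2.58-fold (edgeR BH-adjusted p = 3.31e-11). Both values are without the length correction. At d6 the median log2 fold change between genotypes was 0.57 over the genes shortest in exon bases and -0.47 over the longest. Spearman's rho between exon length and this change was -0.57 across the mitosis genes. With the length correction all 22 mitosis genes were still higher in K36M at d6. The size of the Ccnb2 difference under that correction is not given here, so the part of this trend in its d6 value is not separated.

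Cdk1, the kinase that the B-type cyclins activate, reached levels in K36M that no WT library reached. Cdk1 in WT read 130.1 and 110.3 CPM at d0, 182 and 184 at d2, 133 and 115 at d4, 99.9 and 108 at d6, 127 and 129 at d8, 166 and 173 in iPSCs and 101 and 104 in noOKSM MEFs. In K36M, Cdk1 read 109 and 123 CPM at d0, 205 and 196 at d2, 238 and 251 at d4, 295 and 333 at d6, 217 and 224 at d8, 174 and 164 in iPSCs and 108 and 134 in noOKSM MEFs. K36M libraries lay above WT at d2, d4, d6 and d8, and the 6 libraries of d4 to d8 lay above both WT iPSC libraries. The log2 fold change was 0.13 at d2 (edgeR BH-adjusted p = 0.444) and 0.98 ± 0.105 (edgeR BH-adjusted p = 4.11e-08) at d4. From d8 to iPSCs Cdk1 rose in WT (0.41 ± 0.104, edgeR BH-adjusted p = 0.00143) and fell in K36M (-0.38 ± 0.104, edgeR BH-adjusted p = 0.00375). Plk1, a kinase of mitotic entry and spindle assembly, in WT read 72.9 and 74.6 CPM at d0, 126 and 127 at d2, 73.1 and 64.1 at d4, 60.6 and 46.5 at d6, 62.3 and 64.2 at d8, 173 and 168 in iPSCs and 65.4 and 63.4 in noOKSM MEFs. In K36M, Plk1 read 82.6 and 86.9 CPM at d0, 141 and 139.9 at d2, 158 and 145 at d4, 165 and 142 at d6, 141 and 135 at d8, 173 and 167 in iPSCs and 74.9 and 72.4 in noOKSM MEFs. The Plk1 groups did not overlap from d0 to d8. Aurkb, the kinase of the chromosomal passenger complex, in WT read 37.8 and 38.4 CPM at d0, 78.1 and 84.3 at d2, 52.4 and 50.2 at d4, 44.6 and 37.9 at d6, 53.5 and 51.3 at d8, 131 and 128 in iPSCs and 31 and 33.3 in noOKSM MEFs. In K36M, Aurkb read 45.9 and 46.9 CPM at d0, 91.4 and 92.5 at d2, 89 and 85.1 at d4, 112 and 87.6 at d6, 96.5 and 93.3 at d8, 117 and 112 in iPSCs and 35.3 and 34.7 in noOKSM MEFs. The Aurkb groups did not overlap from d0 to d8 either. Both kinases fell from d2 to d4 in WT and did not change past the threshold in K36M. At d4 the log2 fold changes between genotypes were 1.15 ± 0.102 (edgeR BH-adjusted p = 2.09e-09) and 0.76 ± 0.0972 (edgeR BH-adjusted p = 5.72e-07). Aurka, a spindle pole kinase, was already higher in K36M at d2, at 187 and 168 CPM against 139.6 and 139 CPM in WT, with 0.35 ± 0.0859 (edgeR BH-adjusted p = 0.00439). Without K36M d2 replicate 1 the value was 0.27 and did not pass.

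Checkpoint and kinetochore genes showed some of the largest differences. Bub1, a kinase of the spindle assembly checkpoint, in WT read 54.9 and 57.8 CPM at d0, 89.8 and 90.3 at d2, 50.2 and 51.8 at d4, 45.7 and 46 at d6, 59.2 and 68.9 at d8, 251 and 246 in iPSCs and 53.8 and 56.8 in noOKSM MEFs. In K36M, Bub1 read 75 and 71.3 CPM at d0, 92.4 and 93.2 at d2, 123 and 131 at d4, 108 and 198 at d6, 203 and 195 at d8, 242 and 238 in iPSCs and 58.7 and 65.4 in noOKSM MEFs. The groups did not overlap from d0 to d8. K36M was 2.49-fold higher at d4 and 3.11-fold higher at d8 (edgeR BH-adjusted p = 2.47e-07 and 6.03e-09), and in iPSCs all 4 libraries lay between 238 and 251 CPM. Cenpf, a large kinetochore protein, in WT read 58.5 and 80.8 CPM at d0, 151 and 146 at d2, 84.9 and 119 at d4, 91.8 and 87.9 at d6, 109 and 142 at d8, 388 and 406 in iPSCs and 82 and 83.6 in noOKSM MEFs. In K36M, Cenpf read 111 and 109 CPM at d0, 171 and 176 at d2, 248 and 287 at d4, 181 and 299.95 at d6, 407 and 446 at d8, 351 and 364 in iPSCs and 84.5 and 77.3 in noOKSM MEFs. Its d8 difference of 1.76 ± 0.185 (edgeR BH-adjusted p = 3.53e-08) was the largest of that day, and both K36M d8 libraries were above all 4 iPSC libraries. Cenpa, the histone H3 variant that marks centromeres, in WT read 65 and 53.9 CPM at d0, 124 and 122 at d2, 93.5 and 81.2 at d4, 76.5 and 69.9 at d6, 98.3 and 90.7 at d8, 197 and 194 in iPSCs and 44.1 and 46.4 in noOKSM MEFs. In K36M, Cenpa read 62.5 and 66.4 CPM at d0, 148 and 133 at d2, 157 and 164 at d4, 262 and 235 at d6, 153 and 160.5 at d8, 222 and 212 in iPSCs and 68 and 84.9 in noOKSM MEFs. From d2 on the groups did not overlap. The K36M d6 libraries were the highest of the series for Cenpa, and the d6 log2 fold change was 1.76 ± 0.109 (edgeR BH-adjusted p = 2.29e-12). These Cenpa values are also without the length correction. Ndc80 and Nuf2, which form the microtubule-binding Ndc80 complex, were higher in K36M by 0.98 and 0.62 on the log2 scale at d4 (edgeR BH-adjusted p = 4.09e-08 and 6.23e-06).

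Mki67, which codes for the proliferation marker Ki-67, in WT read 189.8 and 258 CPM at d0, 527 and 520.4 at d2, 280.4 and 380.1 at d4, 273 and 264 at d6, 213 and 275 at d8, 566 and 561 in iPSCs and 288 and 265 in noOKSM MEFs. In K36M, Mki67 read 397 and 374 CPM at d0, 508 and 563 at d2, 534 and 552 at d4, 329.6 and 404 at d6, 535 and 581 at d8, 475 and 486 in iPSCs and 269 and 238 in noOKSM MEFs. K36M libraries lay above WT at d0, d4, d6 and d8 and below WT in iPSCs, where the difference did not pass. Its 10075 bases of exon make it the longest of the 42 after Cenpf, and its lowest K36M level between d2 and d8 was at d6, where the length trend was strongest. At d4 and d8 the log2 fold changes were 0.72 ± 0.143 (edgeR BH-adjusted p = 0.000191) and 1.19 ± 0.144 (edgeR BH-adjusted p = 2.18e-07), and without WT d4 replicate 1 the first was 0.47. At d6 it did not pass without K36M d6 replicate 2 (0.29). Cdc20, the activator of the anaphase-promoting complex, in WT read 130.2 and 120.2 CPM at d0, 208 and 213 at d2, 150.4 and 125 at d4, 117 and 93.8 at d6, 169 and 149 at d8, 334 and 359.7 in iPSCs and 96.5 and 106 in noOKSM MEFs. In K36M, Cdc20 read 122 and 127 CPM at d0, 249.7 and 239 at d2, 298 and 299 at d4, 372 and 343 at d6, 239 and 257 at d8, 367 and 349.5 in iPSCs and 122 and 139 in noOKSM MEFs. K36M libraries of Cdc20 lay above WT from d2 to d8. Cdc20 rose from d6 to d8 in WT as it fell in K36M, a difference of -1.12 ± 0.152 (edgeR BH-adjusted p = 1.17e-05) on the log2 scale. This value is without the length correction and uses the K36M d6 libraries, which stood apart. Spearman's rho between exon length and this step difference was 0.82 across the mitosis genes. With the length correction the Cdc20 change from d4 to d6 in K36M went from 0.26 to -0.070. The part of the length trend in the d6 to d8 difference of Cdc20 is not separated. The spindle motors Kif11, Kif20a and Kif23 were higher in K36M at d4 by 1.13, 0.93 and 1.20 (edgeR BH-adjusted p = 5.21e-06, 1.76e-05 and 1.29e-10). Top2a, which untangles chromosomes, stood at 397 and 495 CPM in WT and 998 and 991 CPM in K36M at d8, with 1.16 ± 0.118 (edgeR BH-adjusted p = 1.61e-08). Across the 28 libraries the median Pearson correlation of log2(CPM + 1) was 0.88 over the 190 pairs of replication genes, 0.86 over the 231 pairs of mitosis genes and 0.82 over the 440 mixed pairs, as a description of libraries that share groups.

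The MEF stages, cells without reprogramming, gave different patterns, and noOKSM MEFs were a stage at which the classes went opposite ways. In noOKSM MEFs 8 replication genes were lower and 0 higher in K36M (all genes lower, 16.7%), while 8 mitosis genes were higher and 1, Foxm1, was lower (all genes higher, 18.2%). The median log2 fold change was -0.19 over the replication genes, 0.24 over the mitosis genes and 0.01 over all genes tested. The replication genes lower in K36M were E2f1, Ccne2, Mybl2, Rrm2, Mcm6, Orc1, Mcm4 and Mcm2. E2f1 was at 54.7 and 60.5 CPM in WT and 33.4 and 36.5 CPM in K36M, a log2 fold change of -0.72 ± 0.14 (edgeR BH-adjusted p = 0.000308). Rrm2 was at 187 and 193 CPM in WT and 128 and 139 CPM in K36M, with -0.51 ± 0.0803 (edgeR BH-adjusted p = 2.56e-05). The mitosis genes higher in K36M were Cenpa, Nuf2, Bub1b, Ccnb2, Ccnb1, Cdc20, Aurka and Kif23. Cenpa was at 44.1 and 46.4 CPM in WT and 68 and 84.9 CPM in K36M, with 0.76 ± 0.109 (edgeR BH-adjusted p = 8.08e-06). Foxm1 was at 78.7 and 77.4 CPM in WT and 56.3 and 45.1 CPM in K36M, with -0.62 ± 0.107 (edgeR BH-adjusted p = 7.43e-05). WT and K36M libraries did not overlap for these 4 genes, as for 66.7% of all genes at this stage. Per library, the replication median minus the mitosis median was -0.47 ± 0.04 in K36M and 0.11 ± 0.0023 in WT on the log2 scale (mean ± SD, n = 2).

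The split depended on single libraries and on scaling in its counts. Without K36M noOKSM replicate 2 it was 4 replication genes lower, 3 mitosis genes higher and 1 lower. Without WT noOKSM replicate 1 it was 4, 5 and 1. Without WT noOKSM replicate 2 it was 3, 7 and 1. With libraries scaled by total counts, which moved the median of all genes by 0.16 and the share of higher calls from 52.1% to 74.2%, 1 replication gene was higher and 3 lower. Of the mitosis genes 14 were higher and 1 lower. The length correction gave 10 replication genes lower, 8 mitosis genes higher and 1 lower. Mybl2 did not pass with total count scaling (-0.36) or without WT replicate 2 or K36M replicate 2 (-0.43 each). Ccne2 did not pass with total count scaling or without any 1 of the 4 libraries (-0.69 to -0.48). Spearman's rho between exon length and log2 fold change across the 22 mitosis genes was -0.69 in noOKSM MEFs and 0.84 at d0. Fibroblast markers summed to 16500 to 21700 CPM in K36M and 15900 to 17500 in WT noOKSM MEFs. Endothelial markers (Pecam1, Cdh5, Kdr, Tek, Emcn and Tie1) summed to 20.2 to 24.2 CPM in K36M, with 0 to 1 of the 6 at 0, and to 6.04 to 7.46 CPM in WT, with 1 of the 6 at 0. The part of either in the result was not tested.

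At d0 members of both classes were higher in K36M. K36M MEFs had 4 replication genes higher (Mcm5, Cdc6, Mcm2 and Mcm7) and 7 mitosis genes higher (Mki67, Cenpf, Kif11, Cenpe, Foxm1, Top2a and Bub1b) with 0 lower, 11 of 42 against 7.6% of all genes tested. The median log2 fold change was 0.12 over the replication genes, 0.25 over the mitosis genes and 0.00 over all genes tested. Mcm5, at 85.1 and 83.6 CPM in WT and 114 and 115 in K36M, had a log2 fold change of 0.44 ± 0.0781 (edgeR BH-adjusted p = 0.000327). Mki67, at 189.8 and 258 CPM in WT and 397 and 374 CPM in K36M, had a change of 0.78 ± 0.144 (edgeR BH-adjusted p = 0.000486). Cenpf did not pass without WT d0 replicate 1 (0.44), K36M d0 replicate 1 (0.65) or replicate 2 (0.67). Without K36M d0 replicate 1 the count was 3, and without WT d0 replicate 1 or K36M d0 replicate 2 it was 4, and the length correction gave 4 replication and 9 mitosis genes higher. Macrophage markers (Ptprc, Csf1r, Cd68, Emr1, Lyz2 and Fcer1g) summed to 42 to 45.3 CPM in WT and 12.9 to 13 CPM in K36M at d0. In each of these 4 libraries 0 of the 6 were at 0, and their part in the result was not tested. From d0 to noOKSM, 0 replication and 4 mitosis genes fell in WT (all genes, 4.06% lower), and 14 replication and 6 mitosis genes fell in K36M (15.6% lower). Of the 20 replication genes 4 had an unadjusted p below 0.05 in WT, and DESeq2 called 1 replication gene lower. Without WT d0 replicate 1 none of the 4 mitosis genes passed, without WT noOKSM replicate 1 or 2 the counts were 1 and 2, and with total count scaling 8. The step differed between genotypes for 9 replication genes, all lower in K36M, and for Cenpa (higher), Foxm1 and Mki67 (lower), 12 of 42 against 12.8% higher and 12.2% lower over all genes. The noOKSM libraries carry another library series in their names than those of d0, so series and stage cannot be told apart here.

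**Figure D5:**
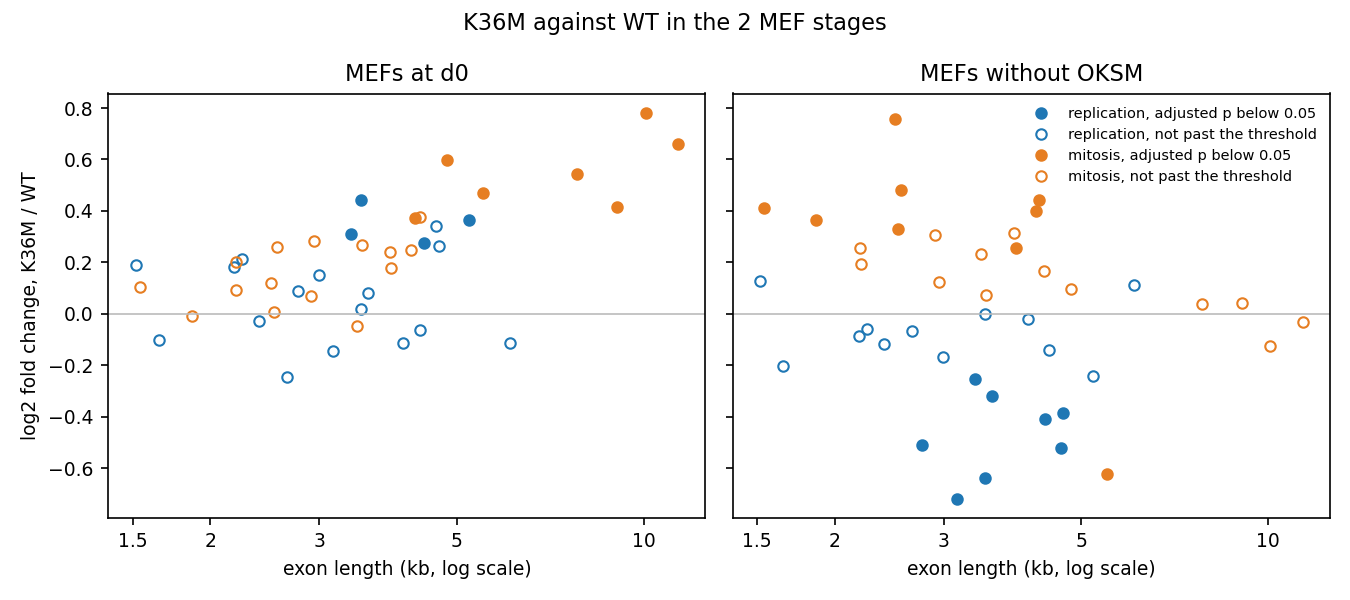
Log2 fold change of K36M against WT for each of the 42 genes against exon length in kb (log scale), in MEFs at d0 (left) and in MEFs without OKSM (right), with replication genes in blue, mitosis genes in orange and filled points past an adjusted p of 0.05. At d0 filled points of both classes lie above 0, and without OKSM the filled replication genes lie below 0 and the filled mitosis genes above it, apart from Foxm1.

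Other genes of the same pathways, from lists that do not contain the 42, moved with them over d2 to d8. These lists, like the members, were chosen with earlier results of these data known, and they were read in the same libraries. Of 41 other fork and origin genes tested 34 were higher in K36M and 0 lower, against 30.2% of all genes higher, led by Uhrf1 (1.20 ± 0.144 on the log2 scale, edgeR BH-adjusted p = 9.7e-06), which recruits DNA methylation to new DNA. Next came Mcm10 (1.04 ± 0.153, edgeR BH-adjusted p = 5.18e-05), a helicase partner. Of 32 other kinetochore and checkpoint genes 28 were higher, with Cenpm (1.39 ± 0.266, edgeR BH-adjusted p = 0.000452) and Cdca8 (1.13 ± 0.205, edgeR BH-adjusted p = 0.000294) in front. Of 32 other spindle and cytokinesis genes 30 were higher, with Dlgap5 (1.19 ± 0.192, edgeR BH-adjusted p = 0.00011) and Ccnf (1.08 ± 0.131, edgeR BH-adjusted p = 1.04e-05), and 0 were lower in either list. Condensin and chromosome structure genes had 13 of 17 higher and 0 lower, with Esco2, a cohesin acetyltransferase, at 1.76 ± 0.214 (edgeR BH-adjusted p = 1.03e-05). Nucleotide supply genes had 7 of 14 higher and 0 lower, with Dut at 0.72 ± 0.154 (edgeR BH-adjusted p = 0.00102). The list medians were 0.56, 0.73, 0.79, 0.54 and 0.28 on the log2 scale in the order named, against 0.02 over all genes.

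Among cycle regulators, of 21 kinase, phosphatase and degradation genes 11 were higher and 2 lower, against 30.2% higher and 28.2% lower over all genes, and the 2 were the D-type cyclins Ccnd2 (-2.42 ± 0.406, edgeR BH-adjusted p = 0.000158) and Ccnd1 (-1.74 ± 0.381, edgeR BH-adjusted p = 0.00132), which drive the cycle from growth signals. Of 18 genes of the E2F, RB and DREAM families 5 were higher and 5 lower, close to the share over all genes in each direction, with Rbl2, the pocket protein p130, at -1.25 ± 0.192 (edgeR BH-adjusted p = 7.42e-05) and E2f4, an E2F that acts with it, at 0.69 ± 0.116 (edgeR BH-adjusted p = 0.000164). In noOKSM MEFs, where 18.2% of all genes were higher and 16.7% lower in K36M, 0 of the 41 other fork and origin genes were higher and 5 lower. Of the 32 other kinetochore and checkpoint genes 9 were higher and 1 lower, and of the 32 other spindle and cytokinesis genes 7 and 1. The 5 fork and origin genes and the 7 spindle genes are near or under the share over all genes.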

How the data were processed

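Read counts per gene, as whole numbers, were deposited by the authors for 28 poly(A) libraries of 37620 genes, of which 25652 had a count. Alignment and counting relied on STAR 2.5.0 and HTSeq 0.11.2 with the mm9 build, and edgeR is named without a version, all per the submitters' processing notes. Per the labels' protocols the kit keeps strand, while the counting's strand setting is not given in the sources used here. Depth was 17507521 to 35622279 counts per library.

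Genes with a count of 10 at the library sizes and group size at hand and a total of 15 were kept (edgeR 4.0.16 in R 4.3.3, filterByExpr), libraries were scaled by TMM, and 14 groups were fitted together with the robust quasi-likelihood test (14 residual degrees of freedom). K36M against WT over d2 to d8 was fitted on 16 libraries with day as a covariate (11 residual degrees of freedom). P-values were Benjamini-Hochberg adjusted over all genes tested with a threshold of 0.05. The standard error was the log2 fold change over the square root of F. The procedure was tested on simulated data.

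The members and lists were chosen with earlier results of these data known. Values in every library are given for 16 members set by rule and for members singled out by size. Up to 3 called members per comparison and class with the largest log2 fold change could be named with statistics, and up to 2 genes of each other list.

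Alternatives were DESeq2 1.42.0, RLE and total count scaling, no filter, a replicate block, a fit of only the groups compared, single days and single libraries left out, and a length correction with the exon length of 16906 genes, added after seeing the data.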

Additional observations from a re-analysis of the deposited data

Results flagged for a closer look

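Each result here is a step of the course that differed between genotypes by the test of the difference itself (edgeR's quasi-likelihood test, adjusted p below 0.05), given as the K36M step minus the WT step on the log2 scale.

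From d0 to d2 the step differed for 3 of the 42 genes (4.16% higher and 6.42% lower over all genes), with Ccne1 at 0.66 and Mki67 at -0.75. From d2 to d4 it differed for 37, all higher (11.1% higher over all genes), with Orc1 at 1.29 and Bub1 at 1.27. From d4 to d6 it differed for 19 (17% higher and 21.1% lower over all genes), with Gins2 at 1.12 and Ccnb2 at 1.36, and from d6 to d8 for 23 (17.9% higher and 21% lower), with Gins1 at -1.11 and Cdc20 at -1.12. Both of these steps use the K36M d6 libraries, which stood apart, and with the length correction Gins1 was at -0.67. The Gins2, Ccnb2 and Cdc20 values are without that correction. From d8 to iPSCs the step differed for 37, all lower (25.1% lower over all genes), with Orc1 at -1.25 and Cenpf at -1.92. From d0 to noOKSM MEFs it differed for 12 (12.8% higher and 12.2% lower over all genes), with Mybl2 at -0.86 and Foxm1 at -1.09. Taken over both directions, the count from d0 to d2 was below the share over all genes and that from d0 to noOKSM was near it, with 11 of those 12 genes lower. Steps that follow each other share libraries.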

How the results depend on the processing

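Calls at d4, d6 and d8 and over d2 to d8 kept their direction under all alternatives run. Leaving out 1 library gave these ranges of members called: 3 to 9 for K36M against WT at d0, 2 to 4 for K36M against WT at d2, 37 to 38 for K36M against WT at d4, 39 to 41 for K36M against WT at d6, 38 to 38 for K36M against WT at d8, 0 to 0 for K36M against WT at iPSC, 8 to 15 for K36M against WT at noOKSM, 39 to 40 for WT d2 against d0, 36 to 37 for WT d4 against d2, 0 to 5 for WT d6 against d4, 11 to 19 for WT d8 against d6, 40 to 41 for WT iPSC against d8, 0 to 3 for WT noOKSM against d0, 36 to 38 for K36M d2 against d0, 10 to 12 for K36M d4 against d2, 14 to 30 for K36M d6 against d4, 14 to 31 for K36M d8 against d6, 20 to 23 for K36M iPSC against d8, 17 to 19 for K36M noOKSM against d0, 1 to 5 for the step difference d2 against d0, 34 to 37 for the step difference d4 against d2, 13 to 28 for the step difference d6 against d4, 17 to 30 for the step difference d8 against d6, 36 to 37 for the step difference iPSC against d8, 9 to 15 for the step difference noOKSM against d0, 38 to 40 for K36M against WT over d2 to d8. Leaving out days 2, 4, 6 or 8 gave 40, 37, 37 and 36 for d2 to d8. Fitting only the groups compared gave 25 members at d2, 5 in iPSCs, 3 for WT d6 against d4, 5 for K36M d6 against d4, 1 for K36M d8 against d6, and 9, 6 and 14 for the step differences to d2, d6 and d8. Total count scaling gave 3 for WT d6 against d4 and 8 for WT noOKSM against d0. The length correction gave 13 for WT d6 against d4 and 11 for K36M d8 against d6, and DESeq2 gave 5 for the step difference to d2. With the length correction the sign turned, with these log2 fold changes, for Cdc20 (K36M d6 against d4) -0.070, Mki67 (K36M d6 against d4) 0.018, Top2a (K36M d6 against d4) 0.46, Plk1 (K36M d6 against d4) -0.24, Cenpf (K36M d6 against d4) 0.47, Mki67 (K36M d8 against d6) -0.0094, Top2a (K36M d8 against d6) -0.14, Cenpe (K36M d8 against d6) -0.092, Mki67 (step difference d6 against d4) 0.36. Leaving out 1 library turned the sign, with these ranges, for Mybl2 (K36M d6 against d4) -0.26 to 0.31, Ccna2 (K36M d6 against d4) -0.30 to 0.19, Ccnb1 (K36M d6 against d4) -0.36 to 0.25, Bub1 (K36M d6 against d4) -0.23 to 0.64, Ccnb1 (K36M d8 against d6) -0.22 to 0.39, Ccne2 (K36M d8 against d6) -0.78 to 0.64, Ccna2 (K36M d8 against d6) -0.24 to 0.24, Kif11 (step difference d6 against d4) -0.57 to 0.36, Kif20a (step difference d6 against d4) -0.56 to 0.31, Kif20a (step difference d8 against d6) -0.33 to 0.54, Ccne2 (step difference d8 against d6) -0.62 to 0.80, Bub1 (step difference d8 against d6) -0.48 to 0.40. The cause was not tested. Total count scaling moved the share of higher among all calls by over 10 points, from 46.9% to 61.8% for WT d2 against d0, 49% to 63.8% for K36M d2 against d0, 77.5% to 87.8% for WT d6 against d4 (66.9% with the length correction), 50.9% to 62.3% for K36M d8 against d6, 50.5% to 34.6% for WT noOKSM against d0, 54.6% to 65.9% for K36M noOKSM against d0 and 51.2% to 69.5% for the step difference to noOKSM. The log2 difference of replicate 1 minus replicate 2 over all genes tested correlated between WT and K36M at -0.184 to 0.344 over 7 stages. The correlation was over 0.1 in 3, so the replicate numbers were not taken as pairs. With the replicate block 10 gene results came past the threshold and 3 fell short of it, and no count moved by over 1.5 times. The lowest count of a member in a library was 169.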
